A study of Homo sapiens with 4 samples.

Results

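Proteins and RNAs pass between nucleus and cytoplasm through the nuclear pore complex, a channel in the nuclear envelope built from proteins called nucleoporins. Cargo with a nuclear localisation signal is carried inward by importins, cargo with a nuclear export signal is carried outward by exportins, and the small GTPase RAN, held in its GTP form in the nucleus, sets the direction by making importins release and exportins bind their loads. Ribosome assembly draws heavily on this traffic, since ribosomal proteins made in the cytoplasm are imported to the nucleolus and finished subunits are exported. The genes described here are the protein-coding genes of the deposited tables whose names start with XPO, IPO, KPN or TNPO, or with NUP and a digit, together with CSE1L, RAN, RANBP1 and RANBP2. They number 50 of the 51103 genes listed.

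The RNA, selected for poly(A), came from AGS cells, an established line grown from a human stomach adenocarcinoma. The FGF2 group holds 2 libraries of cells given recombinant human fibroblast growth factor 2 at 20 ng/mL and harvested after 24 h. The NC group holds 2 libraries, also listed at 24 h. The labels leave NC unexplained, and the treatment text attached to its libraries also speaks of FGF2, so what these cells received cannot be read from the sources used here. The study asked how FGF2, which fibroblasts of tumours secrete, bears on ribosome biogenesis in gastric cancer cells.

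Totals were 13790335 and 27598608 counts in FGF2 libraries 1 and 2, against 14073340 and 27325697 counts in NC libraries 1 and 2. Library 1 exceeded library 2 at only 2 of 22043 genes with counts in the FGF2 group and 2 of 22485 in the NC group, and at 0 of the 50 genes described here, so library 2 appears to contain the reads of library 1 and further reads. Each group was therefore taken as 1 sample (n = 1 per group), no test between conditions was possible, and differences are described by size. Keratin genes marked the cells as epithelial, with KRT18 and KRT7 among the abundant ones and KRT18 at 199 to 201 FPKM (the authors' level per exon length and sequencing depth) in FGF2 libraries and 193 to 194 FPKM in NC libraries, while 4 of 8 epithelial markers (CDH1, EPCAM, CLDN4 and ELF3) stayed under 2 FPKM in every library. By the rule given below KRT19 was higher (log2 fold change 0.89) and KRT8 (-0.42) and ELF3 (-3.33) were lower. Of 10 fibroblast markers 7 stayed under 2 FPKM, but COL1A1 stood at 59.4 to 60.0 FPKM in FGF2 libraries and 101 to 104 FPKM in NC libraries, and PDGFRB at 5.96 to 6.29 and 21.0 to 21.6 FPKM. THY1, the other fibroblast marker measured, stood at 18.0 to 18.2 FPKM in FGF2 libraries and 18.1 to 18.9 FPKM in NC libraries. The summed level of that list was 83.8 to 84.3 FPKM in FGF2 libraries and 141 to 145 FPKM in NC libraries, with COL1A2 and FAP at 0 in all libraries. The epithelial list summed to 575 to 582 and 630.4 to 646 FPKM in the same order. All 5 blood and immune and all 5 endothelial markers stayed under 2 FPKM. The part of these differences in the values below was not tested, and in bulk RNA fewer cells of a type and less RNA per cell cannot be told apart.

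Most transport and pore genes had slightly more transcript in the FGF2 sample, import receptors and the GTPase RAN among them, while the membrane nucleoporin NUP210 had clearly less. Of the 50 genes, 46 were measured, which required 50 or more counts per read set on average. Their median log2 fold change was 0.19 (1.14-fold), beside 0.03 for all 11000 genes measured, and 43 of the 46 were above 0 (93.5%) beside 54.3% of all genes. A gene was called higher when both disjoint FGF2 read sets (library 1, and the other reads of library 2) were 1.2-fold or more above both sets of NC, and lower in the reverse case. By this rule 10 of the 46 were higher, a share of 21.7% beside 12.7% of all genes, and 1 was lower, a share of 2.17% beside 13.4%. At a bound of 1.5-fold 0 were higher, beside 3.14% of all genes, and NUP210 alone was lower, beside 5.17%.

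Both FGF2 read sets lay above both NC read sets, by any amount, for 34 of the 46 genes (73.9%), beside 37.8% of all genes. They lay below for 2 genes, IPO9 and NUP210, beside 31.2% of all genes, and the sets overlapped for 10. With a higher count minimum the shares above were 73.3% of the members and 42.7% of all genes, so the background rose with depth. The part of depth in this contrast was not tested for the 46 genes. The read sets of 1 group differed by a median of 0.08 (log2) in FGF2 and 0.05 in NC over these genes, so many single differences of 0.1 to 0.2 are close to the spread between sets of the same cells. The log2 fold changes of the 2 disjoint read sets correlated across the 46 genes with Pearson's r at 0.82 and Spearman's rho at 0.71 (0.67 and 0.69 without NUP210), a description across genes that share libraries and depth.

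Abundant genes as a whole leaned the same way. Among the 3368 genes that averaged 1000 or more counts, the median log2 fold change was 0.10, 67.5% were above 0, 16.8% were higher by the 1.2-fold rule and 7.78% were lower. The 39 transport and pore genes at that depth had a median of 0.17, 36 above 0, 8 higher (20.5%) and 1 lower (NUP210). The share higher is near that background. With scaling by total count in place of the trimmed mean of M values, 3 of the 46 genes were higher (6.52%) beside 8.47% of all genes, and the median was 0.10 beside -0.06. Under that scaling 34 of the 46 were above 0, beside 41.9% of all genes, and the read sets of FGF2 lay above those of NC for 25 genes (54.3%, beside 27.6% of all genes) and below for 5. The calls kept were those of IPO7, IPO5 and KPNA4 as higher and NUP210 as lower. RAN, XPOT, TNPO1, IPO11, NUP50, NUP58 and KPNA5 no longer met the rule.

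**Figure D1:**
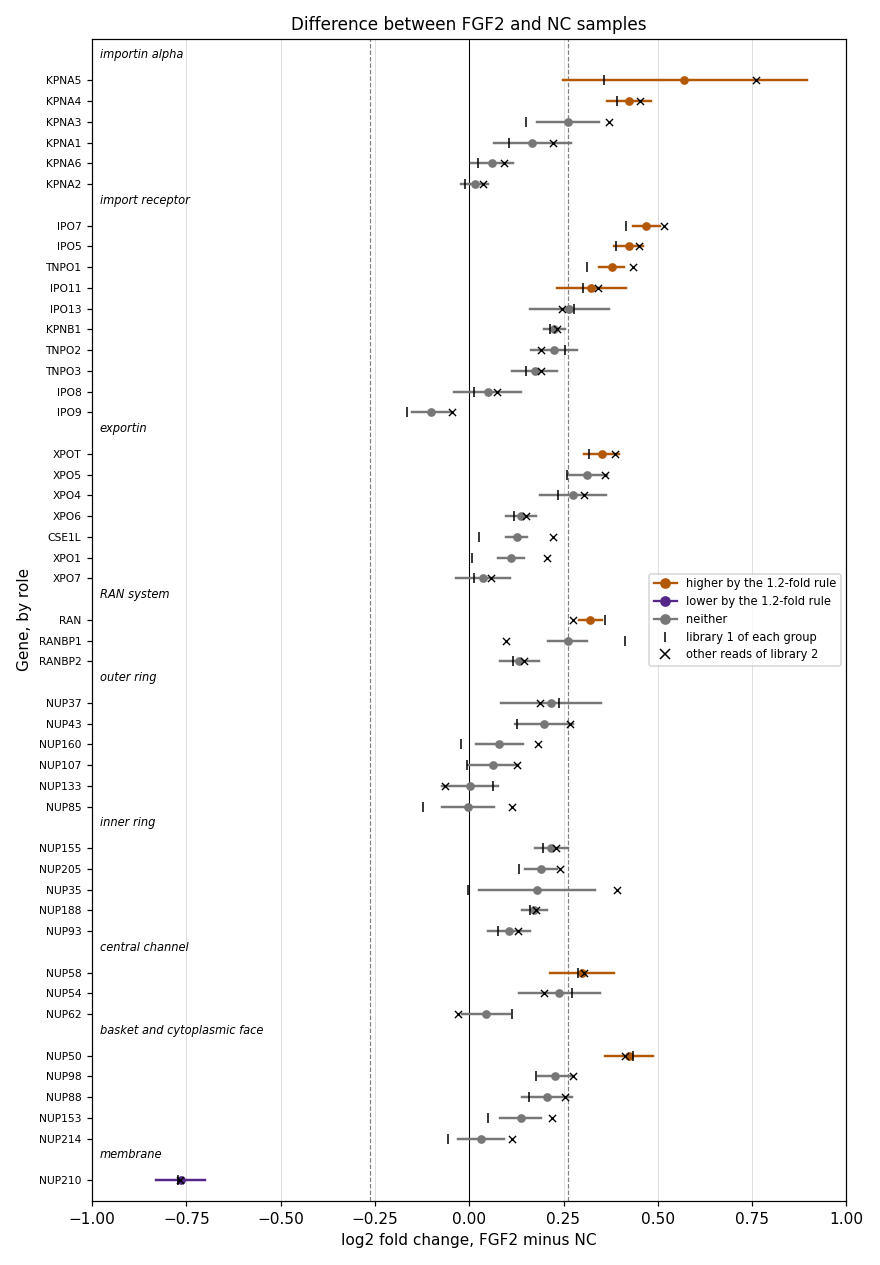
Log2 fold change (FGF2 minus NC, x axis) of the 46 measured genes, grouped by role on the y axis. Dots are library 2 values with 95% counting intervals, upright ticks are library 1 and crosses are the other reads of library 2. Dashed lines mark 1.2-fold. Points lie right of 0 for 43 genes, 10 genes are coloured as higher, and NUP210 lies far to the left at -0.76, past IPO9 at -0.10.

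The start regions of 5 genes called by the rule show what lies upstream of 2 import receptor genes, an exportin gene, RAN and the lower gene. The import receptor genes IPO7 and IPO5, the exportin gene XPOT and RAN were higher and NUP210 was lower. The windows are the 250 bases before the RefSeq start on GRCh38.p14, written 5′ to 3′ on the gene's strand. They are chr11:9384402-9384651 (plus strand) for IPO7, chr13:97953425-97953674 (plus) for IPO5, chr12:64404142-64404391 (plus) for XPOT, chr12:130871816-130872065 (plus) for RAN and chr3:13420323-13420572 (minus) for NUP210. Capitals mark matches on either strand to CACGTG (the E box that MYC and MAX bind), CCGGAAG (a core bound by ETS factors), TGCGCA (part of the NRF1 motif), CCAAT or TATAAA.
IPO7: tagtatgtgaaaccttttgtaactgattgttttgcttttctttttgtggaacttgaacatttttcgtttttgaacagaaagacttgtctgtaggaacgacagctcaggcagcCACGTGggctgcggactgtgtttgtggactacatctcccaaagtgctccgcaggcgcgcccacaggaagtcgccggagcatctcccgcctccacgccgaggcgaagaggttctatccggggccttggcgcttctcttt
IPO5: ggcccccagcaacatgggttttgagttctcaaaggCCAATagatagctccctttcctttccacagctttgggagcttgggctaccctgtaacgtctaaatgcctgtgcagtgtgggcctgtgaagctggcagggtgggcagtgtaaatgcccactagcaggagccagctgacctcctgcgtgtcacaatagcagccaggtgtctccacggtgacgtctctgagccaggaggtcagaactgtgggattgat
XPOT: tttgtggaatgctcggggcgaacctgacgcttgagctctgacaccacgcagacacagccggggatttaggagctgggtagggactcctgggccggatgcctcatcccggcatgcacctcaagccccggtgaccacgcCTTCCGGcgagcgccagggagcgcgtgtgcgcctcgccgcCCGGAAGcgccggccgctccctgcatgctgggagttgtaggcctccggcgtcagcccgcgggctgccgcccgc
RAN: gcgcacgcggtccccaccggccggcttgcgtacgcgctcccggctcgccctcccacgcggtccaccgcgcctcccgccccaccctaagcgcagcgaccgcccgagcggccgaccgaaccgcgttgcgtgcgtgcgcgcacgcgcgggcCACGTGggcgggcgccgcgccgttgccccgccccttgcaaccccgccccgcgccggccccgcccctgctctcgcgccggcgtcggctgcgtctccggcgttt
NUP210: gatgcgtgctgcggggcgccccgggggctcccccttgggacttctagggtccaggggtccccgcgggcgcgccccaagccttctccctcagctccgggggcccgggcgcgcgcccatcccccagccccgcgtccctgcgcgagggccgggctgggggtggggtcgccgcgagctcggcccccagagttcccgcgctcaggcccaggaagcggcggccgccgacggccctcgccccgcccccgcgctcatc

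CACGTG lay 138 to 133 bases before the start of IPO7 and 102 to 97 bases before that of RAN, and CCGGAAG or its reverse complement was found at 2 places before XPOT. IPO5 held only CCAAT and the NUP210 window held none of the motifs searched, which says only that these letters are absent from that window. RefSeq windows were matched for 43 of the 50 genes, giving 55 windows because some genes have several starts that overlap. CACGTG was in 14.5% of these windows beside 6.34% of all 35116 windows, CCGGAAG in 21.8% beside 8.52%, CCAAT in 45.5% beside 32.0%, TGCGCA in 9.09% beside 6.89% and TATAAA in 7.27% beside 10.7%. The median GC content was 62.0% beside 58.0%. The windows of all genes include those of noncoding genes, and a match is a description of letters, not a site. Of the genes called higher, 8 were matched, with 11 windows. CACGTG was in 3 of these windows (IPO7, RAN and NUP50) and CCGGAAG in 3 (XPOT, NUP58 and NUP50). CCAAT was in 2 (IPO5 and TNPO1), TATAAA in 2 (IPO11) and TGCGCA in 1 (IPO11). Whether these shares differ from those of the other members was not tested.

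Importin alpha proteins, encoded by the KPNA genes, read classical nuclear localisation signals and join cargo to importin beta. The levels of these genes split by member. KPNA4 (importin alpha 3, ENSG00000186432, chromosome 3, 160494995 to 160565588 on GRCh38, from GENCODE release 29 as for the genes below) stood at 20.6 and 20.9 FPKM in FGF2 libraries 1 and 2, against 16.8 and 16.6 FPKM in NC libraries 1 and 2. Its log2 fold change was 0.42 (95% counting interval 0.37 to 0.48), and the lowest FGF2 read set exceeded the highest NC read set by 1.31-fold. KPNA2 (importin alpha 1), the most abundant of the family, stood at 142 and 143 FPKM in FGF2 libraries, against 152 and 151 FPKM in NC libraries. After scaling its log2 fold change was 0.01 (-0.02 to 0.05), -0.08 with scaling by total count, and its read sets overlapped between groups.

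KPNA2 made up 65.8% of the summed importin alpha FPKM in FGF2 library 2, against 69.0% in NC library 2. KPNA4 made up 9.61% and 7.59% in the same libraries. In library 1 the shares of KPNA2 were 66.5% in FGF2 and 69.2% in NC, and those of KPNA4 were 9.68% and 7.62%. KPNA3, the close relative of KPNA4, was at 0.26 (0.18 to 0.34), 0.15 by library 1 alone and 0.37 by the remaining reads, and did not meet the rule. KPNA1 was at 0.17 (0.06 to 0.27) and KPNA6 at 0.06 (0.01 to 0.12; -0.03 with scaling by total count), and 16.3% of the KPNA1 exon sequence is shared with the opposite strand. KPNA5 was higher at 0.57 (0.25 to 0.89; 0.36 by library 1 and 0.76 by the remaining reads), from only 196 counts in FGF2 library 2 and 139 in NC library 2, which is 0.622 and 0.446 FPKM. KPNA7, known for its role in early embryos, had 0 and 3 counts and was not measured.

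**Figure D2:**
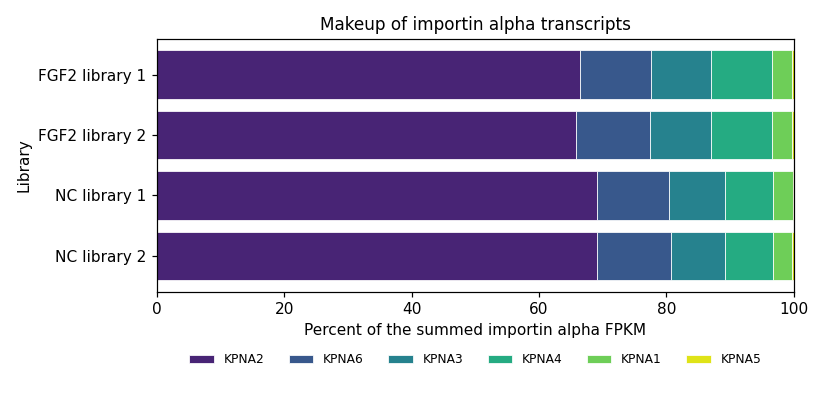
Percent of the summed importin alpha FPKM (x axis) held by each KPNA gene in each library (y axis). KPNA2 holds 65.8% to 66.5% in FGF2 libraries and 69.0% to 69.2% in NC libraries, and KPNA4 holds 9.61% to 9.68% and 7.59% to 7.62%. The KPNA5 segment is too thin to be seen, and KPNA7 is left out.

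The import receptors of the importin beta family carry cargo themselves. Of 11, 10 were measured, 4 were higher by the rule (40.0%, beside 12.7% of all genes), 0 were lower (beside 13.4%) and the median log2 fold change was 0.25. With scaling by total count 2 were higher, IPO7 and IPO5, beside 8.47% of all genes. The 4 called by the rule were IPO7, IPO5, TNPO1 and IPO11. Ribosomal proteins are known to use several receptors, both called (IPO7, IPO5 and TNPO1) and not called (KPNB1), which is not a full list. Whether this cargo goes with the calls was not tested. IPO7 (ENSG00000205339, chromosome 11, 9384622 to 9448126) stood at 73.5 and 76.4 FPKM in FGF2 libraries, against 58.9 and 58.7 FPKM in NC libraries. Its log2 fold change was 0.47 (0.43 to 0.50), the highest among members with at least 1000 counts per read set, and its read sets were 1.33-fold apart.

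IPO5 (ENSG00000065150, chromosome 13, 97953658 to 98024297) stood at 45.8 and 47.4 FPKM in FGF2 libraries, against 37.3 and 37.6 FPKM in NC libraries, a log2 fold change of 0.42 (0.38 to 0.46). A related pseudogene, IPO5P1, is listed in 2 rows, of which the larger had 154 counts in FGF2 library 2 and 240 in NC library 2, while IPO5 itself had 12641 and 9932. TNPO1 (transportin 1, which imports RNA-binding proteins with a PY signal, chromosome 5, 72816312 to 72916733) stood at 48.3 and 51.0 FPKM in FGF2 libraries, against 41.6 and 41.8 FPKM in NC libraries. The log2 fold change came to 0.38 (0.35 to 0.41). In these 3 genes every FGF2 library was above every NC library. IPO11, an importer of ubiquitin-conjugating enzymes, was at 0.32 (0.23 to 0.42), but 22.6% of its exon sequence is shared with genes on the same strand, so its count is uncertain.

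KPNB1, the importin beta that pairs with importin alpha, was the most abundant import receptor. It stood at 111 and 111 FPKM in FGF2 libraries, against 102 and 101 FPKM in NC libraries, and its log2 fold change of 0.23 (0.20 to 0.25) fell short of the rule, with read sets 1.14-fold apart. IPO13, which also works as an exportin, was at 0.27 (0.16 to 0.37), TNPO2, the paralog of TNPO1, at 0.23 (0.16 to 0.29) and TNPO3, which imports SR splicing factors, at 0.17 (0.11 to 0.23). IPO8, the paralog of IPO7, was at 0.05 (-0.04 to 0.14), and its read sets overlapped. IPO9, an importer of histones and actin, stood at 17.4 and 18.3 FPKM in FGF2 libraries, against 20.8 and 20.9 FPKM in NC libraries. Its log2 fold change of -0.10 (-0.15 to -0.05) was the only one below 0 in this role. FGF2 read sets lay below NC read sets by 1.03-fold at their nearest. The value was -0.17 by library 1 and -0.05 by the remaining reads. That gap is larger than the log2 fold change itself, so no direction is read for IPO9. IPO4 had 8 counts in FGF2 library 2 and 0 in NC library 2 and was not measured.

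The summed level of the import receptors was 385 and 397 FPKM in FGF2 libraries, against 345 and 346 FPKM in NC libraries. For the importin alpha genes the sums were 213 and 217 FPKM in FGF2 libraries, against 220.5 and 218 FPKM in NC libraries. These sums are of deposited FPKM, which are scaled by total count, and no direction is read for the importin alpha sum, since with TMM scaling all 6 measured KPNA genes were above 0.

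**Figure D3:**
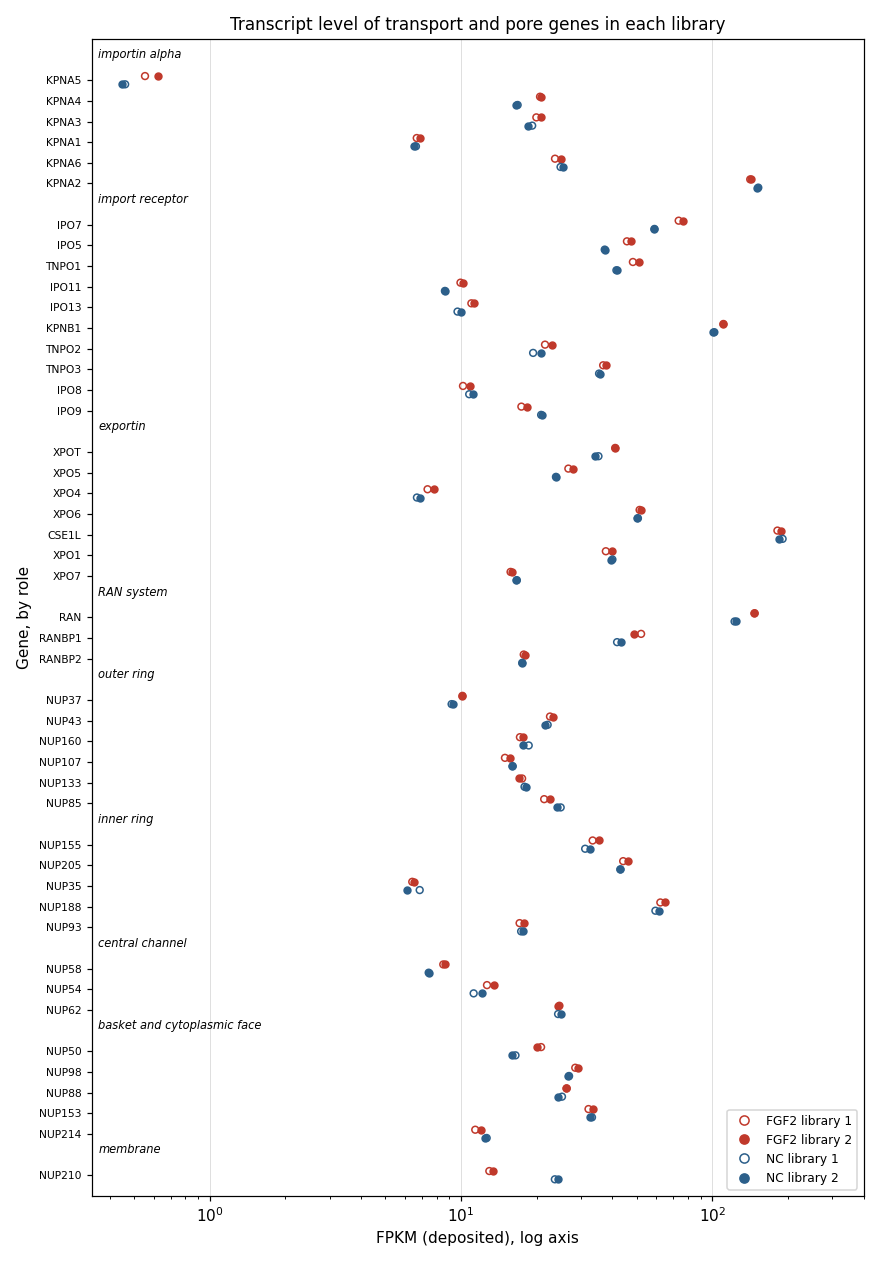
Deposited FPKM (x axis, log scale) of each measured gene in each library, by role on the y axis, with open circles for library 1 and filled circles for library 2. CSE1L, RAN, KPNA2 and KPNB1 lie above 100 FPKM in every library, and NUP210 shows the widest gap between the red FGF2 points and the blue NC points among genes above 1 FPKM.

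Of the 7 exportins, all measured, 1 was higher by the rule (14.3%, near the 12.7% of all genes), 0 were lower and the median log2 fold change was 0.14. With scaling by total count 0 were higher, beside 8.47% of all genes. XPOT, which exports tRNA (ENSG00000184575, chromosome 12, 64404350 to 64451127), stood at 41.1 and 41.0 FPKM in FGF2 libraries, against 35.2 and 34.2 FPKM in NC libraries. This is a log2 fold change of 0.35 (0.31 to 0.40), and its read sets were 1.22-fold apart. XPO5, which exports precursor microRNAs, lay just outside the bound with read sets 1.197-fold apart and a log2 fold change of 0.31 (0.26 to 0.36). It stood at 26.8 and 27.8 FPKM in FGF2 libraries, against 23.9 and 23.8 FPKM in NC libraries. XPO4, which carries the translation factor eIF5A, was at 0.28 (0.19 to 0.36).

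The exportin of most proteins and of both ribosomal subunits, XPO1 (CRM1, ENSG00000082898), differed little. It stood at 37.7 and 40.0 FPKM in FGF2 libraries, against 40.1 and 39.4 FPKM in NC libraries. Its log2 fold change was 0.11 (0.08 to 0.15), 0.01 by library 1 and 0.21 by the remaining reads, both outside that counting interval. CSE1L, which returns importin alpha to the cytoplasm, was the most abundant gene of all 50 in both groups. It stood at 182 and 188 FPKM in FGF2 libraries, against 191 and 184 FPKM in NC libraries, with a log2 fold change of 0.13 (0.10 to 0.15), 0.03 from library 1 and 0.22 from the other reads. For both genes the gap between those 2 estimates was larger than the log2 fold change itself, so no direction is read from them. XPO6, which exports actin with profilin, was at 0.14 (0.10 to 0.18) and XPO7 at 0.04 (-0.04 to 0.11), -0.05 with scaling by total count.

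RAN, the GTPase itself (ENSG00000132341, chromosome 12, 130871879 to 130877678), stood at 147 and 147 FPKM in FGF2 libraries, against 123 and 125 FPKM in NC libraries. Its log2 fold change of 0.32 (0.29 to 0.35) met the rule with read sets 1.21-fold apart, near the bound. All 9 processed pseudogene rows named RANP held at most 5 counts in a library. RANBP1, which helps the RAN GTPase-activating protein in the cytoplasm, stood at 52.1 and 49.0 FPKM in FGF2 libraries, against 41.8 and 43.5 FPKM in NC libraries. The value after scaling was 0.26 (0.21 to 0.31, log2), but 0.41 from library 1 and 0.10 from the other reads, and 11.2% of its exon sequence is shared with other genes. RANBP2, the giant filament nucleoporin that binds RAN and acts as a SUMO ligase, was at 0.13 (0.08 to 0.18). Its near copies, 7 RGPD genes, had 254 counts together in FGF2 library 2 and 277 in NC library 2, against 6107 and 5868 for RANBP2, so reads could be split among them.

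Nucleoporins form stacked rings, a gated central channel, a nuclear basket, cytoplasmic filaments and a membrane ring. Of 22 nucleoporin genes and paralogs, 20 were measured, 2 were higher (10.0%, beside the 12.7% of all genes), 1 was lower and the median log2 fold change was 0.18. The importins, exportins and RAN system genes, RANBP2 counted among them, had 8 of 26 higher (30.8%, beside 12.7%). Of these genes 0 were lower, beside 13.4% of all genes, and the median was 0.24. With scaling by total count the only genes of either set called higher were IPO7, IPO5 and KPNA4, beside 8.47% of all genes. The difference between the 2 sets was not tested. The outer ring genes, whose products form the Y-shaped scaffold, had 0 of 6 higher (beside 12.7% of all genes), with a median of 0.07. In a set this small, 0 is not read as a result. NUP85 and NUP133 were at -0.00 (-0.07 to 0.07) and 0.00 (-0.07 to 0.08), NUP107 at 0.06 (-0.00 to 0.13), NUP160 at 0.08 (0.02 to 0.14; -0.02 by library 1 and 0.18 by the remaining reads), NUP43 at 0.20 (0.12 to 0.28) and NUP37 at 0.22 (0.08 to 0.35). NUP43, the most abundant of them in FGF2 library 2, stood at 22.6 and 23.3 FPKM in FGF2 libraries, against 22.1 and 21.6 FPKM in NC libraries.

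The inner ring, which anchors the channel, had 0 of 5 genes higher (beside 12.7% of all genes), at a median of 0.18. This set too is small, and 0 is not read as a result. NUP188, its most abundant member, stood at 62.2 and 65.0 FPKM in FGF2 libraries, against 59.4 and 61.4 FPKM in NC libraries, a log2 fold change of 0.17 (0.14 to 0.21). NUP205 was at 0.19 (0.15 to 0.23), NUP155 at 0.22 (0.17 to 0.26), NUP93 at 0.11 (0.05 to 0.16) and NUP35 at 0.18 (0.03 to 0.33), the last -0.00 by library 1 and 0.39 by the remaining reads. In the central channel, whose FG repeats form the selective barrier, NUP58 was higher at 0.30 (0.22 to 0.38). It stood at 8.50 and 8.67 FPKM in FGF2 libraries, against 7.44 and 7.49 FPKM in NC libraries, with read sets 1.207-fold apart, barely inside the bound. Its partners NUP54 at 0.24 (0.13 to 0.35) and NUP62 at 0.04 (-0.02 to 0.11) did not meet it, NUP62 being at -0.04 with scaling by total count and sharing 21.1% of its exon sequence with other genes.

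NUP50, a mobile basket protein that helps importin alpha shed its cargo (ENSG00000093000, chromosome 22, 45163841 to 45188015), was the nucleoporin gene with the highest fold change. It stood at 20.8 and 20.1 FPKM in FGF2 libraries, against 16.5 and 15.9 FPKM in NC libraries. The log2 fold change was 0.42 (0.36 to 0.49), and its read sets were 1.23-fold apart. The noncoding gene NUP50-DT, which starts next to it, had 76 counts in FGF2 library 2 and 102 in NC library 2. NUP153, the large basket nucleoporin, was at 0.14 (0.08 to 0.19), but 0.05 by library 1 and 0.22 by the remaining reads, and NUP98, which lines both faces and binds RNA export factors, at 0.23 (0.18 to 0.27). On the cytoplasmic face NUP88 was at 0.21 (0.14 to 0.27), with 18.7% of its exon sequence shared with genes on the opposite strand. NUP214, its partner in export complex release, was at 0.03 (-0.03 to 0.09), and at -0.06 with scaling by total count.

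NUP210 (ENSG00000132182, chromosome 3, 13316235 to 13420309) encodes gp210, the glycoprotein that spans the nuclear membrane at the pore and is known in mouse for tissue-specific expression, rising when muscle and neural cells differentiate. It stood at 13.0 and 13.4 FPKM in FGF2 libraries, against 23.6 and 24.3 FPKM in NC libraries, which is 3034 counts in FGF2 library 2 and 5429 in NC library 2. The log2 fold change was -0.76 (-0.83 to -0.70), -0.77 by library 1 and -0.77 by the remaining reads, and the read sets were 1.62-fold apart at their nearest. It ranked 36th by FPKM among the 50 genes in the FGF2 sample, against 20th in the NC sample, while NUP50 ranked 27th against 34th and KPNA4 25th against 32nd. The log2 fold change of the other 45 measured genes lay between -0.10 and 0.57. None of its exon sequence is shared with another annotated gene, and its 3 pseudogene rows were at 0 counts. Its paralog NUP210L had 6 counts in FGF2 library 2 and 11 in NC library 2, and NUP62CL had 26 and 47 counts, so neither was measured.

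Genes of the same traffic outside the naming rule were read for comparison. The other pore proteins had 0 of 11 higher and 0 lower (beside 12.7% and 13.4% of all genes), with a median log2 fold change of 0.19. AHCTF1 (ELYS, which seeds pores on chromatin) had the highest value at 0.34 (0.29 to 0.40), and GLE1, an activator of the mRNA export helicase, the lowest at -0.25 (-0.32 to -0.17), a gene called lower with scaling by total count. In the RAN cycle list 1 of 4 measured was higher (beside 12.7% of all genes), at a median of 0.10. With scaling by total count 0 were, beside 8.47% of all genes. The gene called was RCC1, the chromatin-bound exchange factor that loads RAN with GTP. It stood at 74.9 and 75.9 FPKM in FGF2 libraries, against 65.7 and 65.5 FPKM in NC libraries (0.30, 0.26 to 0.35). RANGAP1, the GTPase-activating protein, was at 0.06 (-0.03 with scaling by total count), and NUTF2, which carries RAN back into the nucleus, at -0.09.

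The mRNA export list had 2 of 17 higher (11.8%, near the 12.7% of all genes), 0 lower and a median of 0.21. Under scaling by total count 0 were higher, beside 8.47% of all genes. The 2 called were NXT1, the partner of the export receptor NXF1, at 0.46 (0.34 to 0.58), and THOC5, a subunit of the THO complex, at 0.33 (0.23 to 0.44), while NXF1 itself was at 0.08 (-0.01 with scaling by total count). Factors that accompany ribosomal subunits or proteins across the pore had 4 of 5 higher (80.0%, beside 12.7% of all genes) and a median of 0.46. With scaling by total count 3 were higher (beside 8.47% of all genes), LTV1 falling short, and at 1.5-fold 1 was (beside 3.14%). NMD3, the adaptor that joins the large subunit to XPO1, stood at 18.8 and 19.3 FPKM in FGF2 libraries, against 15.4 and 15.5 FPKM in NC libraries (0.40, 0.32 to 0.49). RIOK2 was at 0.62 (0.48 to 0.76), LTV1 at 0.46 (0.31 to 0.62) and PDCD2L at 0.65 (0.31 to 0.99), all linked to small subunit export or maturation, and HEATR3, an import chaperone of RPL5, stood at -0.04 (-0.16 to 0.08). LTV1 and PDCD2L share 34.8% and 34.2% of their exon sequence with other genes. PDCD2L, the gene called at 1.5-fold, had only 186 counts in FGF2 library 2 and 125 in NC library 2. This list of 5 was chosen with earlier results of these data known. The lamina and inner nuclear membrane list, structural neighbours without a carrier role, had 0 of 10 higher and 0 lower, beside 12.7% and 13.4% of all genes. Its median was -0.13, with LMNB1 (lamin B1) at -0.23 (-0.28 to -0.19) and LBR (the lamin B receptor) at 0.30 (0.24 to 0.35). With scaling by total count 3 were lower (LMNB1, SUN1 and SUN2), beside 17.6% of all genes. The differences between these lists were not tested.

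**Figure D4:**
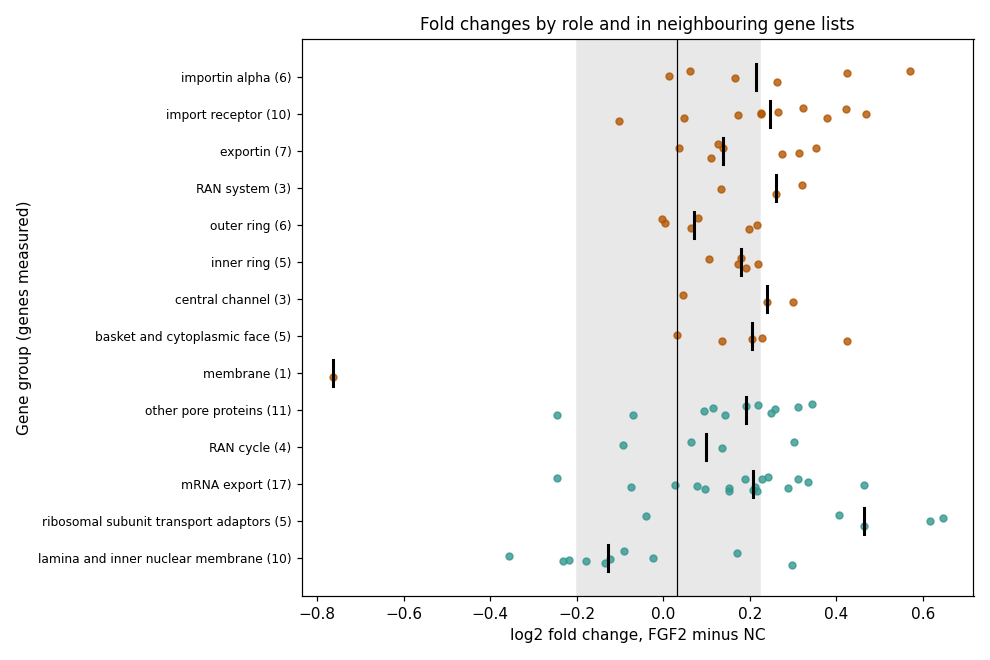
Log2 fold change (FGF2 minus NC, x axis) of each measured gene, by role (brown) and in the comparison lists (green) on the y axis, with the number measured in brackets. Thick bars are group medians, the thin line is the median of 11000 genes (0.03) and the grey band their interquartile range (-0.20 to 0.22). Of the 46 transport and pore genes, 26 lie inside the band.

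The fold change of the 46 genes had no clear tie to level or length. Across genes its Spearman rho was -0.05 with log2 FPKM in NC library 2 and 0.10 with exon length, descriptions over genes of the same libraries. Together the 50 genes took 1.08% and 1.11% of all counts in FGF2 libraries, against 1.03% and 1.03% in NC libraries.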

How the data were processed

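Poly(A) RNA libraries were made with the NEBNext Ultra kit, per the labels' protocols, which does not mark strand. HISAT2 and HTSeq 0.13.5 with GRCh38 are named in the submitters' processing notes. The deposited raw counts and deposited FPKM values (by the authors, scaled by exon length and total count) were used as given. All 51103 identifiers are in GENCODE release 29, and the exon length implied by FPKM equalled that of the release for 99.5% of the 11923 genes tested. The 2 libraries of a group were parted into disjoint read sets (library 1, and library 2 less library 1). Scaling was by TMM (edgeR 4.0.16) over 15030 genes kept by filterByExpr, with DESeq2 1.42.0 size factors and total count as alternatives. Log2 fold changes compare the libraries 2, with 0.5 added to each count before scaling. Intervals are 95% Clopper-Pearson intervals of the counts. They hold counting error alone and so are too narrow. Read sets of 1 group share a source, so gaps between groups measure these libraries and not cultures.

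Genes named in the text are every member called at 1.2-fold and, per role, the most abundant member and those with the highest and lowest fold change, 26 in all, and the remaining members follow by value. The members, roles, lists and rules were chosen with earlier results of these data known. Sequences are from RefSeq (GRCh38.p14). Isoforms were not analysed here.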

Additional observations from a re-analysis of the deposited data

How the results depend on the processing

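The 10 members higher and 1 lower at 1.2-fold, and the median log2 fold change of 0.19, changed under these alternatives. With scaling by total count 3 were higher (6.52%, beside 8.47% of all genes) and the median was 0.10. With log2(FPKM + 1) of library 2, which also follows the total count, 5 were higher (10.9%, beside 11.9%) and the median was 0.10. The 1.5-fold bound left 0 higher (beside 3.14%) and the 1.1-fold bound gave 18 (39.1%, beside 22.4%). With no filter on low counts 2 were lower, NUP62CL being the second. Leaving out FGF2 library 2 gave 11 higher (23.9%, beside 17.7% of all genes), 1 lower and a median of 0.15. Without NC library 2 there were 12 higher (26.1%, beside 16.9%), 1 lower and a median of 0.18. Leaving out library 1 of either group dropped no reads, since library 2 appears to contain them, so the median of 0.19 could not change. It gave 11 higher (23.9%, beside 16.5% without FGF2 library 1 and 16.4% without NC library 1) and 1 lower. In all 4 settings fewer read sets had to pass. The other alternatives (DESeq2 size factors, a higher count minimum, protein-coding genes alone, the mean of both libraries, and 41 members without exon sharing of 10% or more) gave 9 to 13 higher and 1 lower, the 13 (28.3%, beside 21.5%) with the mean of both libraries. Of the 11 called members, 4 (IPO7, IPO5, KPNA4 and NUP210) met the rule in every scaling and group value tried, and with library 2 of either group left out. The others (RAN, XPOT, TNPO1, IPO11, NUP50, NUP58 and KPNA5) fell short with scaling by total count. Total-count scaling also turned 9 members, none of them called, from above to below 0 (KPNA2, KPNA6, IPO8, XPO7, NUP62, NUP107, NUP133, NUP160 and NUP214). No paired analysis was possible because library 2 of each group appears to hold the reads of library 1, and no result comes from a test. The 196 and 139 counts of KPNA5 in FGF2 and NC library 2 limit its precision, and 4 members had too few counts to be measured.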

Other observations

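Some transport genes that most cells are known to use were listed at or near 0 counts. IPO4, an importer of histones, had 8 counts in FGF2 library 2 and 0 in NC library 2, and 69.3% of its exon sequence is annotated as shared with AL136295.4 on the same strand, itself at 0 counts in all libraries. RANGRF, a RAN-binding protein, had 1 and 1 counts in the same libraries, and 82.0% of its exon sequence is shared with a gene on the opposite strand. SARNP, an mRNA export factor, had 1 and 3 counts and shares 38.5% of its exon sequence. The part of exon sharing in these low values was not tested.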
